A study of Vitis vinifera with 24 samples.

Results

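In grapevine (Vitis vinifera), 74 loci of 29971 were high in both anthers and embryogenic callus and low in the other 2 kinds of callus sampled, in both cultivars studied. They were chosen by measured values. In Sangiovese and in Cabernet Sauvignon alike, the mean of the 3 replicates had to be 5 FPKM or more in anthers and in embryogenic callus. The lower of those 2 means had to be at least 5 times the higher of the means of day-40 callus and non-embryogenic callus. FPKM counts fragments relative to transcript length and to sequencing depth, so that levels of different loci can be set side by side.

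Somatic embryogenesis is the formation of embryos from body cells instead of from a fertilised egg. In grapevine, anthers, the pollen-bearing parts of the flower, are a usual starting tissue. They hold the microspores that become pollen and the tapetum, the inner wall layer that nourishes them. An auxin together with a cytokinin turns the tissue into callus, a mass of dividing cells, and parts of that callus later form embryos. Embryogenic callus is typically made of small cells with dense cytoplasm in compact clusters, whereas non-embryogenic callus is typically looser, with larger vacuolated cells.

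The study compared 8 groups of 3 libraries, which the labels call biological replicates. EC was callus classed as embryogenic under a stereomicroscope at month 4 of culture, and NEC was callus classed as non-embryogenic at that time. A was the starting tissue, anthers taken from immature flowers, and 40D was undifferentiated callus at day 40. Each was sampled in Sangiovese (SG), labelled highly competent for embryogenesis, and in Cabernet Sauvignon (CS), labelled poorly competent. All callus came from anthers kept in the dark on medium with 4.5 µM of the auxin 2,4-D and 8.9 µM of the cytokinin BAP. The EC and NEC calli were later moved to an embryo proliferation medium with other hormones, so the 2 types of month-4 callus share age and medium and were told apart by eye. Whole tissue was extracted, and fewer cells of a type cannot be told apart from less RNA per cell.

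The deposited table identifies loci by code alone, and the codes found 0 matches among the 29591 genes of the reference table. The loci are therefore called by identifier, with no function given. The labelled tissues could not be checked against marker genes for the same reason. The libraries did not record strand, so reads of a locus and of an antisense partner cannot be told apart, and loci with a near-identical copy may share reads.

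How many reads stand behind a library cannot be read from FPKM values. The relative depth estimated from the steps between low values ran from 0.889 to 1.5. The sums of all FPKM values in a library ran from 729402 to 938765. In the EC and A groups, replicate 3 lay between replicates 1 and 2 at 61.7% to 73.3% of the loci with 5 FPKM or more, against 31.6% to 40.0% in the NEC and 40D groups. Among the 74 loci this held at 48 in SG EC, 57 in CS EC, 54 in SG A and 45 in CS A, against 30 in SG NEC, 28 in CS NEC, 20 in SG 40D and 26 in CS 40D. What set this pattern was not tested, and a replicate 3 that carries less information of its own would make p-values for EC and A too small. At 1 of the 74 loci, VIT_00s2290g00010, and at 130 loci in the whole table, a library was listed at 0 while another of its group had 10 FPKM or more. An exact 0 of this kind can be a failed estimate, and that locus is given apart from the rest.

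The 74 loci were a small share of the loci high in either tissue. In both cultivars, 864 of the 29971 loci passed the same limits for A over 40D and NEC, and the 74 were 8.56% of them. For EC, 648 of the 29971 loci passed, and the 74 were 11.4% of them. The full rule was met by 158 loci in SG, of which the 74 were 46.8%, and by 181 in CS, of which they were 40.9%. That the 74 lie in every list follows from the rule. All the lists ask for low 40D and NEC, so the size of the overlap was not tested and is not read as small or large. Just inside the fold limit lay VIT_14s0108g01630 at 5.01-fold, VIT_14s0066g00970 at 5.02-fold and VIT_05s0077g01860 at 5.04-fold in their weaker cultivar. Just outside it lay VIT_12s0028g00940 at 4.96-fold, VIT_13s0067g00480 at 4.92-fold and VIT_18s0001g14580 at 4.89-fold. At the level limit, VIT_03s0038g02330 at 5.09 FPKM, VIT_18s0001g01660 at 5.15 FPKM and VIT_03s0091g00280 at 5.33 FPKM were inside. VIT_00s0684g00030 at 4.95 FPKM, VIT_14s0068g00510 at 4.83 FPKM and VIT_11s0037g00290 at 4.57 FPKM were outside.

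Many loci lay close to these limits. The ratio of the lower of the A and EC means to the higher of the NEC and 40D means had a median of 8.35 in SG and 9.77 in CS. It was under 7 in at least one cultivar for 40 of the 74 loci and 10 or more in both cultivars for 17. When the libraries were rescaled by median-of-ratios factors, 49 of the 74 still met the rule and no other locus joined them. Of the 25 that dropped out, 22 had a ratio under 7.

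**Figure D1:**
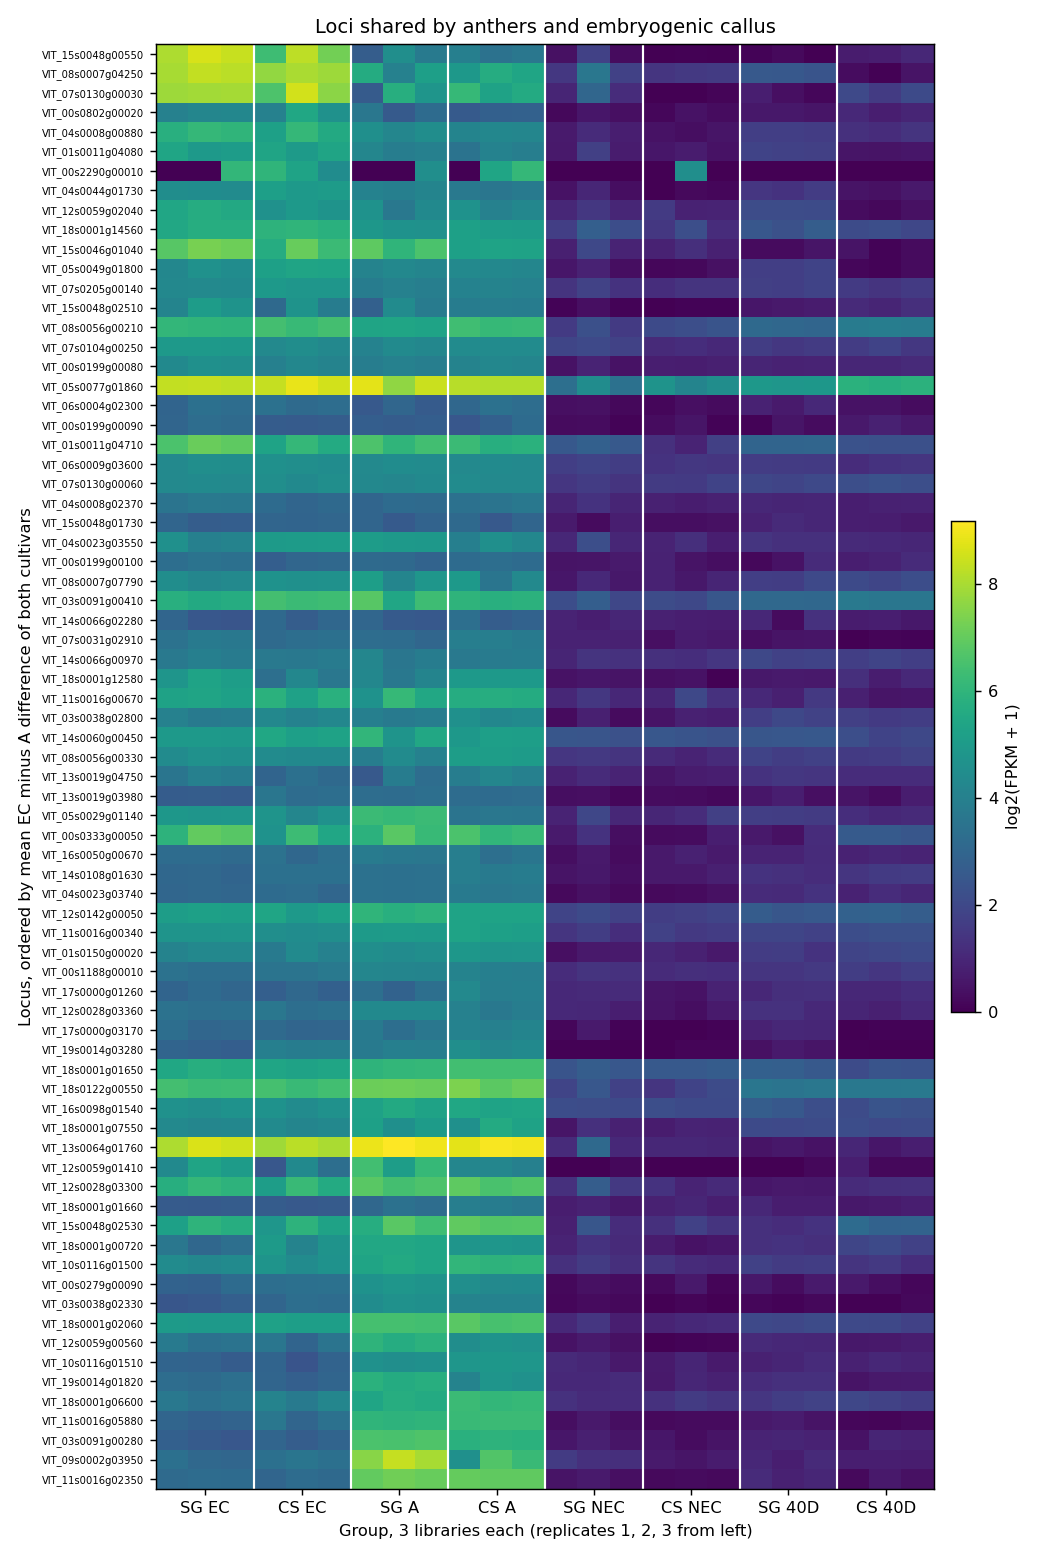
Level of each of the 74 loci (rows) in each of the 24 libraries (columns) as log2(FPKM + 1), with rows ordered by the mean difference between EC and A and columns grouped as SG and CS within EC, A, NEC and 40D. The left columns (EC and A) are bright and the right columns (NEC and 40D) dark by construction, while the balance between EC and A shifts from the top rows to the bottom rows, and the row of VIT_00s2290g00010 alternates between 0 and high values.

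Summed over the 74 loci, the level was 3296 ± 308 FPKM in SG EC and 2970 ± 473 in CS EC. It was 3575 ± 52.4 in SG A and 3247 ± 9.28 in CS A (SD, n = 3 each). The sums in NEC were 116 ± 46.4 in SG and 103 ± 10.6 in CS, and those in 40D were 174 ± 4.46 in SG and 202 ± 4.56 in CS. As a share of all FPKM, the 74 loci made up 0.426% in SG EC, 0.368% in CS EC, 0.480% in SG A and 0.427% in CS A. The share was 0.0137% in SG NEC, 0.0117% in CS NEC, 0.0191% in SG 40D and 0.0217% in CS 40D. The rule itself sets this gap, so no test of it is given. A typical member was a locus of moderate level: the median of the member means was 19.4 FPKM in SG EC, 19.8 in CS EC, 22.1 in SG A and 20.4 in CS A, against 1.06 in SG NEC, 0.739 in CS NEC, 1.38 in SG 40D and 1.06 in CS 40D.

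The rule used means, and the gap it set was also counted library by library. In SG, every EC and A library was above every NEC and 40D library at 72 of the 74 loci, and in CS at 73. Of all loci in the table, 13.3% did so in SG and 15.2% in CS, but the rule had already used this contrast and nothing is read from the counts. VIT_00s2290g00010 failed in both cultivars. VIT_07s0130g00030 failed in SG, where its lowest A library had 5.23 FPKM and its highest NEC library 7.22 FPKM.

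The highest level over EC and A belonged to VIT_13s0064g01760. It had 266, 401 and 364 FPKM in SG EC, 237, 299 and 257 in CS EC, 482, 582 and 506 in SG A, and 452, 546 and 524 in CS A. In NEC it had 1.18, 7.74 and 1.08 FPKM in SG and 1.06, 1.05 and 0.923 in CS, and in 40D 0.414, 0.526 and 0.353 in SG and 1.00, 0.469 and 0.718 in CS. No EC or A library came near any NEC or 40D library at this locus, which also had the widest gap of all members on the log2(FPKM + 1) scale. Its lower EC or A mean was 103 times the higher NEC or 40D mean in SG and 261 times in CS. The SG NEC mean of 3.33 FPKM fell to 1.13 without replicate 2 of that group.

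The second highest locus, VIT_05s0077g01860, was only just inside the rule. It had 328, 329 and 315 FPKM in SG EC, 335, 466 and 375 in CS EC, 446, 202 and 352 in SG A, and 293, 282 and 276 in CS A. It was also the member with the highest residual level, with 28.5, 27.7 and 28.0 FPKM in SG 40D and 57.6, 52.7 and 58.5 in CS 40D. Its NEC values were lower than these, at 9.23, 20.9 and 9.80 FPKM in SG and 25.1, 16.7 and 21.7 in CS. EC and A overlapped at this locus in SG, EC lay above A in CS, and the difference missed the threshold of limma's test in both (adjusted p = 0.91 in SG and 0.11 in CS).

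Next in level were VIT_15s0048g00550, VIT_08s0007g04250 and VIT_07s0130g00030, all higher in EC than in A, and VIT_18s0122g00550, lower in EC than in A. VIT_18s0122g00550 had 85.6, 76.5 and 78.5 FPKM in SG EC and 88.5, 74.5 and 83.9 in CS EC, against 137, 142 and 137 in SG A and 166, 116 and 134 in CS A. Its 40D means, 11.1 ± 0.480 FPKM in SG and 11.9 ± 0.0521 in CS (SD, n = 3 each), hardly varied between replicates. The EC and A libraries did not overlap in either cultivar, with log2 differences of -0.78 ± 0.161 in SG and -0.74 ± 0.161 in CS (SE, limma adjusted p = 0.00019 and 0.00034).

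After VIT_13s0064g01760, the widest gaps belonged to VIT_15s0046g01040, VIT_11s0016g00670, VIT_12s0028g03300, VIT_01s0011g04710 and VIT_12s0059g01410. VIT_15s0046g01040 averaged 137 ± 23.1 FPKM in SG EC, 86.8 ± 42.1 in CS EC, 92.9 ± 28.2 in SG A and 38.0 ± 1.35 in CS A (SD, n = 3 each). None of its NEC and 40D means exceeded the 1.54 ± 1.25 FPKM of SG NEC, which was 0.823 without replicate 2. VIT_11s0016g00670 was the most even of these across tissues and cultivars, at 38.4 ± 1.84 FPKM in SG EC, 49.9 ± 11.3 in CS EC, 46.6 ± 22.5 in SG A and 50.5 ± 1.07 in CS A. Its NEC and 40D means lay between 0.548 and 1.81 FPKM, and EC and A missed the threshold in both cultivars.

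VIT_12s0028g03300 had 52.7, 69.3 and 60.2 FPKM in SG EC, 33.3, 73.1 and 47.6 in CS EC, 113, 86.0 and 97.6 in SG A, and 119.6, 92.4 and 101 in CS A. Its libraries were lower in EC than in A without overlap, while its SG NEC mean of 2.97 FPKM was 1.64 without replicate 2. VIT_12s0059g01410 was close to absent outside EC and A, with 0, 0 and 0.146 FPKM in SG NEC, 0 in all 3 CS NEC libraries, 0, 0 and 0.149 in SG 40D and 0.714, 0.137 and 0.146 in CS 40D. Its level in EC was 19.6, 40.3 and 32.1 FPKM in SG and 4.57, 19.6 and 9.01 in CS. Replicate 2 raised the CS EC mean, which was 11.1 FPKM with it and 6.79 without it, still over the limit of 5 FPKM.

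**Figure D2:**
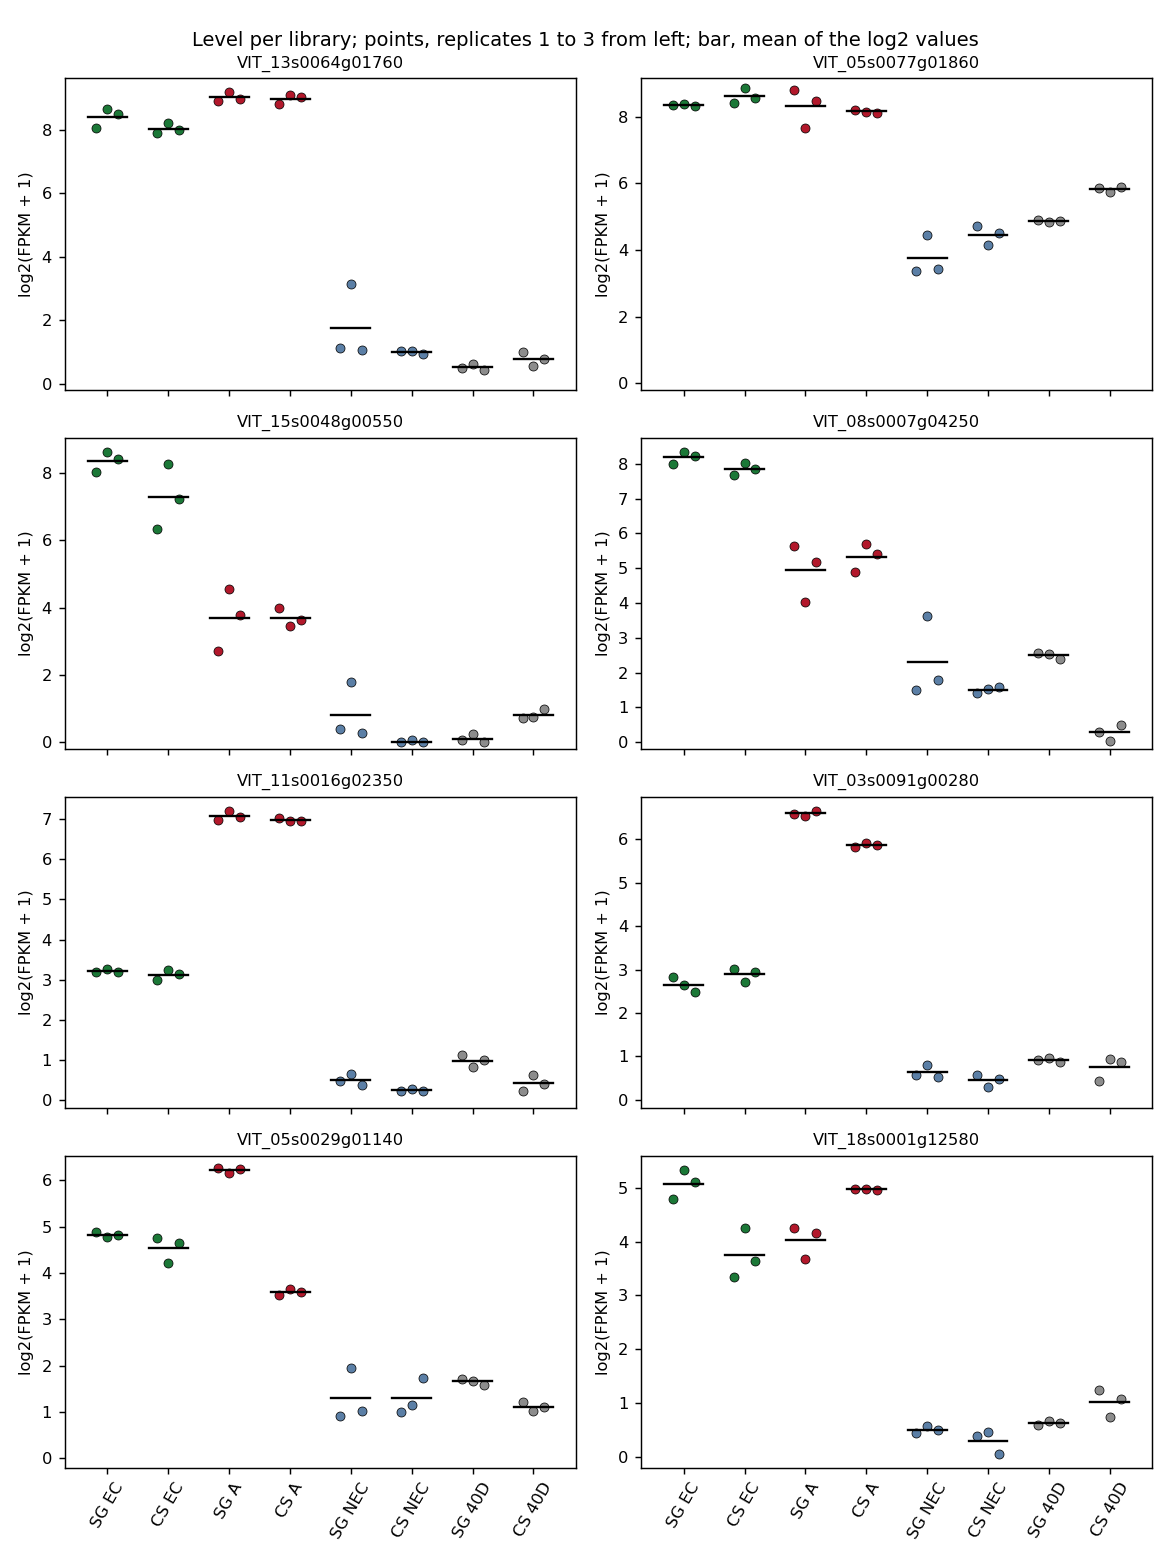
Level per library, as log2(FPKM + 1), of 8 loci in the 8 groups; points are single libraries (replicates 1 to 3 from left) and bars the mean of the log2 values. VIT_13s0064g01760 and VIT_05s0077g01860 are high in both tissues, VIT_15s0048g00550 and VIT_08s0007g04250 higher in EC, VIT_11s0016g02350 and VIT_03s0091g00280 higher in A, and the last pair differ between the cultivars, while NEC and 40D lie below EC and A in every panel.

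The residual level in the 2 low groups was small but not even. The higher of the NEC and 40D means was under 1 FPKM for 24 of the 74 loci in SG and for 29 in CS. NEC had a lower mean than 40D at 57 loci in SG and at 56 in CS, and at 46 in both. Of all loci with a mean of 0.1 FPKM or more in either group, 45.4% had a lower mean in NEC than in 40D in SG and 48.1% in CS. This difference between the 74 loci and the rest was not tested, since the rule used both groups.

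Replicate 2 of SG NEC stood apart from its group. Its sum over the 74 loci was 169.6 FPKM, against 89.2 and 89.3 FPKM in replicates 1 and 3, and it was the highest of the 3 at 58 of the 74 loci. Its excess over the mean of the other two, as a share of the SG EC mean of the same locus, had a median of 2.27% with quartiles of 0.970% and 3.17%, and was above 0 at 65 loci. The same share was taken over 1083 other loci. Their SG EC mean was 5 FPKM or more and at least 5 times the higher of the SG 40D and SG NEC means. Over these, the median was 2.14% with quartiles of 0.647% and 4.07%. The source of this signal was not tested. Without that library, the SG NEC mean moved by over 1.5 times at 15 of the 74 loci, 40D was higher than NEC at 61 loci in SG in place of 57, and 72 loci met the rule when SG EC replicate 1 was left out as well.

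The rule asks for high levels in EC and in A but not for equal ones, so the 2 tissues could be compared. More of the 74 loci were lower in EC than in A than were higher, in both cultivars. In SG, 22 of the 74 loci were higher in EC than in A and 33 were lower, where 44.2% of all 21568 loci tested were higher and 35.4% lower. In CS, 14 were higher and 36 lower, where 47.6% of all loci tested were higher and 33.0% lower. The test was limma on log2(FPKM + 1) across all loci, with a Benjamini-Hochberg adjusted p under 0.05. All 74 loci passed its filter on low values, as the rule ensures.

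In either direction, 55 of the 74 loci were called in SG, where 79.6% of all loci tested were called, and 50 in CS, where 80.6% were. Their median log2 difference was -0.26 in SG and -0.31 in CS, against 0.11 in SG and 0.22 in CS over all loci. Median-of-ratios scaling shifted the median of all loci to 0.02 in SG and 0.08 in CS and that of the members to -0.39 in SG and -0.46 in CS, so that the median of the members stayed below that of all loci. No called member changed sign under that scaling. The difference lay within a factor of 2, that is within 1 on the log2 scale, at 51 loci in SG and 46 in CS. A rule that asks for 5 FPKM in both tissues limits how far EC and A can lie apart, and no test sets the members against the other loci.

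Combining the cultivars, 26 loci were lower in EC in both, where 28.2% of all loci were, and 9 were higher in both, where 38.2% were. The 26 had a median mean of 8.53 FPKM in SG EC and 9.72 in CS EC, against 36.0 in SG A and 32.2 in CS A. The 9 had a median mean of 49.6 FPKM in SG EC and 50.5 in CS EC, against 15.6 in SG A and 15.7 in CS A. A further 13 were called in SG alone and 8 in CS alone, where 10.5% and 11.5% of all loci were. Neither cultivar gave a call at 11 loci (8.94% of all loci). The calls were opposite at 7 loci, where 2.7% of all loci were. Across the 74 loci, the EC minus A difference in SG and that in CS had a Pearson r of 0.81 and a Spearman rho of 0.67, against an r of 0.88 over all loci tested. These loci share their libraries and their choice, and the r is a description.

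The largest excess in EC was that of VIT_15s0048g00550. It had 263, 392 and 338 FPKM in SG EC against 5.59, 22.4 and 12.9 in SG A, and 80.1, 309 and 149.9 in CS EC against 14.8, 10.00 and 11.4 in CS A. No EC library overlapped with A, but the CS EC values differed among themselves by more than those of SG EC. The log2 difference was 4.67 ± 0.442 in SG and 3.59 ± 0.442 in CS (SE, limma adjusted p = 8.6e-09 and 3.6e-07). The CS EC mean of 179.7 FPKM was 115 without replicate 2. At this locus NEC was near 0, at 0.332, 2.46 and 0.211 FPKM in SG and 0, 0.0491 and 0 in CS, and its SG NEC mean of 1.00 was 0.272 without replicate 2.

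VIT_08s0007g04250 followed, with 255, 323 and 298 FPKM in SG EC against 48.9, 15.4 and 35.4 in SG A. In CS it had 206, 258 and 231 FPKM in EC against 28.7, 51.1 and 41.4 in A. The groups were far apart in both cultivars, and the log2 difference was 3.23 ± 0.411 in SG and 2.52 ± 0.411 in CS (SE, limma adjusted p = 5.9e-07 and 1.4e-05). Its SG NEC libraries had 1.82, 11.5 and 2.43 FPKM, and their mean of 5.24 was 2.12 without replicate 2.

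VIT_07s0130g00030 had 228, 239.9 and 243 FPKM in SG EC against 5.23, 53.2 and 26.6 in SG A. In CS EC it had 97.4, 372 and 192 FPKM against 70.9, 38.3 and 48.2 in CS A. The groups did not overlap, but the spread was wide in SG A and in CS EC. The log2 difference was 3.50 ± 0.611 in SG and 1.89 ± 0.611 in CS (SE, limma adjusted p = 3.2e-05 and 0.0082). Without CS EC replicate 2 the CS mean of 221 FPKM was 145 and the adjusted p was 0.057. Without SG A replicate 2 the SG A mean of 28.3 FPKM was 15.9 and the SG log2 difference 4.18, and without SG A replicate 1 that difference was 2.62. In NEC, its SG mean of 3.14 FPKM was 1.09 without replicate 2.

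Smaller differences were those of VIT_04s0008g00880 and VIT_01s0011g04080. VIT_04s0008g00880 had 54.8, 68.3 and 63.3 FPKM in SG EC against 23.1, 17.4 and 21.6 in SG A, and 36.4, 68.4 and 46.6 in CS EC against 16.5, 18.2 and 17.7 in CS A. VIT_01s0011g04080 had 41.6, 30.7 and 33.1 FPKM in SG EC against 17.5, 13.7 and 14.8 in SG A, and 40.7, 30.8 and 40.2 in CS EC against 10.4, 16.0 and 14.1 in CS A. Neither showed an overlap of EC with A. The log2 difference was 1.54 in SG and 1.43 in CS for VIT_04s0008g00880, and 1.14 in SG and 1.41 in CS for VIT_01s0011g04080. The remaining loci higher in EC in both cultivars were VIT_00s0802g00020, VIT_04s0044g01730, VIT_07s0205g00140 and VIT_18s0001g14560, with log2 differences between 0.40 and 1.96.

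The largest deficit shared by both cultivars was that of VIT_11s0016g02350. It had 8.11, 8.58 and 8.20 FPKM in SG EC against 125, 146 and 132 in SG A, and 6.92, 8.51 and 7.76 in CS EC against 128, 123 and 123 in CS A. Both cultivars gave nearly the same values, and the log2 difference was -3.86 ± 0.101 in SG and -3.85 ± 0.101 in CS (SE, limma adjusted p = 3.6e-17 and 3.8e-17). Its NEC means were 0.418 ± 0.139 FPKM in SG and 0.188 ± 0.0276 in CS, and its 40D means 0.991 ± 0.202 in SG and 0.349 ± 0.188 in CS (SD, n = 3 each). The rule itself places EC above NEC and 40D at this locus, while EC stood far below A.

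VIT_11s0016g05880 and VIT_18s0001g06600 had the same shape. VIT_11s0016g05880 had 6.99, 6.05 and 6.66 FPKM in SG EC against 62.8, 60.9 and 63.3 in SG A, and 11.6, 6.95 and 9.81 in CS EC against 73.5, 75.8 and 76.3 in CS A. VIT_18s0001g06600 had 11.8, 9.84 and 11.0 FPKM in SG EC against 41.8, 51.4 and 47.8 in SG A, and 16.3, 12.7 and 17.6 in CS EC against 74.8, 67.2 and 70.7 in CS A. EC and A were widely separated at both loci. The log2 difference was -3.07 in SG and -2.89 in CS for VIT_11s0016g05880, and -2.01 in SG and -2.13 in CS for VIT_18s0001g06600.

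At VIT_03s0091g00280 the deficit was deeper in SG. It had 6.09, 5.26 and 4.63 FPKM in SG EC against 95.3, 92.8 and 100.4 in SG A, and 7.07, 5.56 and 6.71 in CS EC against 55.9, 59.7 and 57.9 in CS A. The EC levels of the cultivars overlapped while the A levels did not. The log2 difference was -3.95 ± 0.121 in SG and -2.99 ± 0.121 in CS, and these differed by -0.96 ± 0.171 (SE, limma adjusted p = 0.0002).

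**Figure D3:**
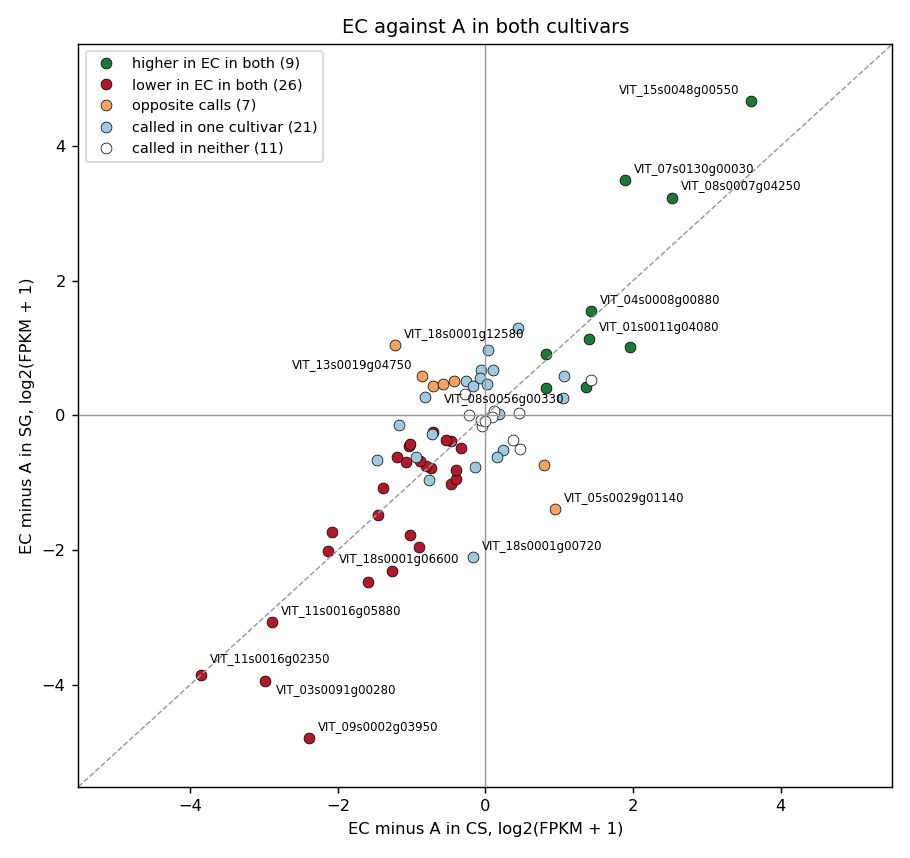
EC minus A difference of each of the 74 loci in SG (vertical axis) against that in CS (horizontal axis), both on the log2(FPKM + 1) scale, coloured by the calls in the 2 cultivars; the dashed line marks equal differences. The 26 loci lower in both run down to VIT_11s0016g02350 and VIT_09s0002g03950, the 9 higher in both up to VIT_15s0048g00550, and 7 loci with opposite calls lie in the other quadrants.

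The cultivars differ in their labelled competence for embryogenesis, which makes the comparison of SG with CS within a tissue the second question. In EC, 16 of the 74 loci were higher in SG and 14 lower, where 19.3% of all loci tested were higher and 32.1% lower. In A, 13 were higher in SG and 17 lower, where 20.0% were higher and 23.5% lower. Over both directions, 30 members were called in each tissue, where 51.4% of all loci were called in EC and 43.5% in A. The counts in EC were not stable. With a pseudocount of 0.1 FPKM, 8 were higher in SG EC and 9 lower, and with replicate 3 of all EC and A groups left out, 7 were higher and 10 lower. The count of loci higher in SG EC was 10 without SG EC replicate 2 and also 10 without SG EC replicate 3. In total, 29 members were called in neither (29.5% of all loci). With 1 cultivar on each side, competence cannot be told apart from any other difference between the cultivars.

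Few loci differed between the cultivars in the same direction in both tissues. In all, 3 of the 74 loci (4.05%) were higher in SG in both tissues, where 6.9% of all loci tested were. Another 3 (4.05%) were lower in both, where 11.3% were, and 9 (12.2%) were opposite, where 6.25% were. These counts rest on few loci. The rule asks for 5 FPKM in EC and A of both cultivars, which limits how far the cultivars can lie apart. Across the 74 loci, the SG minus CS difference in EC and that in A had a Pearson r of 0.22. Their Spearman rho was -0.07. Over all loci tested, r was 0.33 and rho 0.25. The 74 include VIT_00s2290g00010, whose zeros may be failed estimates. It had the lowest log2 difference of all members in both tissues, at -3.24 in EC and -2.34 in A. The r without that locus was not worked out, so the positive r is not read as agreement between the tissues.

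In EC, VIT_18s0001g12580 had the largest excess in SG among loci without overlap between the cultivars, with 26.8, 39.2 and 33.5 FPKM in SG against 9.15, 18.1 and 11.4 in CS. In A it was lower in SG, with 18.2, 11.8 and 16.8 FPKM against 30.7, 30.6 and 30.2 in CS. The libraries of the cultivars did not overlap in either tissue. The SG minus CS log2 difference was 1.33 ± 0.196 in EC and -0.94 ± 0.196 in A (SE, limma adjusted p = 1.6e-05 and 0.00066).

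VIT_01s0011g04710 had 94.5, 135 and 119 FPKM in SG EC against 39.3, 68.5 and 48.5 in CS EC, and VIT_12s0059g02040 had 41.9, 50.2 and 45.7 in SG EC against 23.8, 29.8 and 25.5 in CS EC. Neither locus showed an overlap between the cultivars in EC, whereas their A libraries overlapped. The log2 difference in EC was 1.16 ± 0.209 for VIT_01s0011g04710 and 0.78 ± 0.22 for VIT_12s0059g02040 (SE, limma adjusted p = 0.00013 and 0.0063). The adjusted p for VIT_12s0059g02040 was 0.067 when replicate 3 of all EC and A groups was left out.

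Lower in SG EC were VIT_18s0001g00720, VIT_19s0014g03280 and VIT_05s0049g01800. VIT_18s0001g00720 had 11.6, 7.48 and 9.24 FPKM in SG EC against 31.3, 16.2 and 25.5 in CS EC, a log2 difference of -1.25 ± 0.173. VIT_19s0014g03280 had 6.85, 6.29 and 5.79 FPKM in SG EC against 14.7, 13.5 and 13.7 in CS EC, a log2 difference of -1.04 ± 0.086. VIT_05s0049g01800 had 17.9, 24.3 and 21.4 FPKM in SG EC against 36.6, 40.5 and 39.5 in CS EC, a log2 difference of -0.85 ± 0.121 (SE). All 3 were separated between the cultivars in EC, with limma adjusted p of 8e-06, 1.2e-08 and 1.1e-05.

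In A, the largest excess in SG was that of VIT_05s0029g01140, with 75.3, 70.5 and 74.9 FPKM in SG against 10.5, 11.6 and 11.1 in CS. In EC the same locus had 28.3, 26.5 and 27.1 FPKM in SG against 25.9, 17.6 and 23.9 in CS. The cultivars were far apart in A and close in EC, with log2 differences of 2.63 ± 0.208 in A and 0.29 ± 0.208 in EC (SE, limma adjusted p = 6.9e-09 and 0.26).

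VIT_09s0002g03950 had 188, 332 and 252 FPKM in SG A against 23.4, 103 and 73.6 in CS A, and 9.52, 7.61 and 7.20 in SG EC against 9.38, 10.9 and 9.62 in CS EC. The A libraries were separated between the cultivars but spread widely within each. The SG minus CS log2 difference in A was 2.13 ± 0.331 (SE, limma adjusted p = 3.6e-05) and 1.52 without CS A replicate 1. Its EC minus A difference was -4.80 in SG and -2.39 in CS, and the CS value was -3.01 without that library.

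The third locus higher in SG A was VIT_12s0059g01410, with 84.0, 33.9 and 69.5 FPKM against 17.8, 17.8 and 15.0 in CS A. It was higher in SG in both tissues, with a log2 difference of 1.73 ± 0.361 in A and 1.54 ± 0.361 in EC (SE, limma adjusted p = 0.00069 and 0.0016), although its EC libraries overlapped. Lower in SG A were VIT_08s0056g00330, with 13.7, 20.4 and 15.6 FPKM against 33.6, 33.6 and 32.2 in CS A, and VIT_08s0056g00210, with 39.8, 41.2 and 39.1 FPKM against 82.5, 69.6 and 74.0 in CS A. These 2 loci were separated between the cultivars, with log2 differences of -0.98 ± 0.106 and -0.89 ± 0.134.

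**Figure D4:**
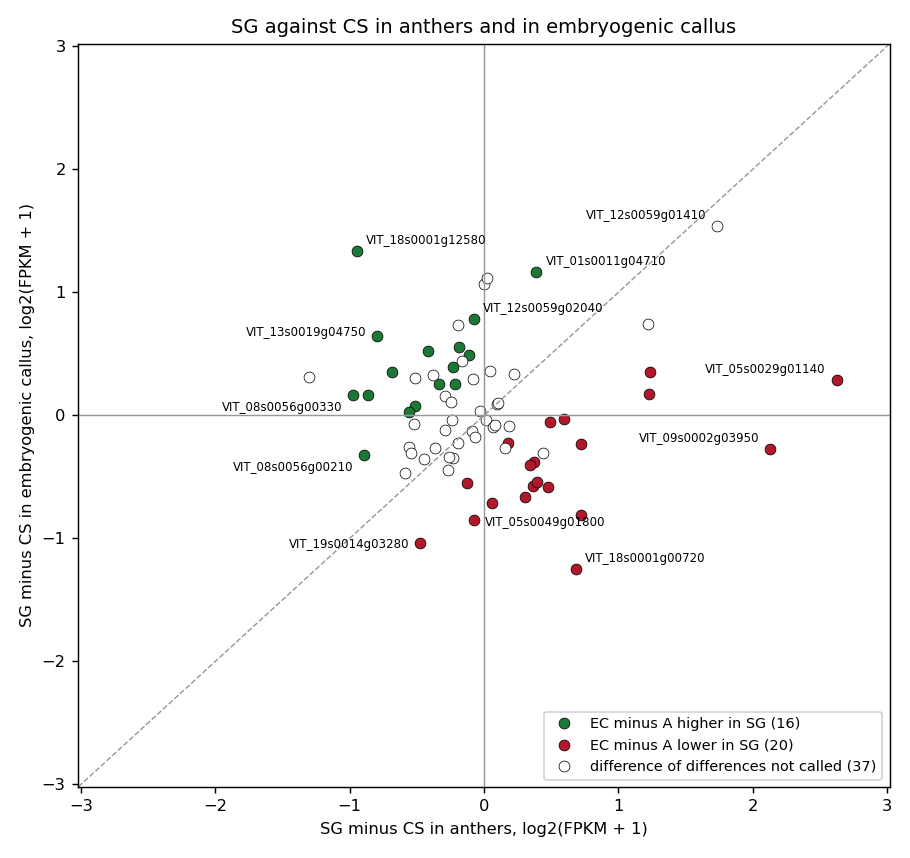
SG minus CS difference in EC (vertical axis) against that in A (horizontal axis), both on the log2(FPKM + 1) scale, for the members other than VIT_00s2290g00010; colours give the call of the difference between the cultivars' EC minus A differences, and the dashed line marks equal differences. The 16 loci with a higher difference in SG lie above the line and the 20 with a lower one below it, with VIT_05s0029g01140 farthest right.

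Whether the cultivars differed in how EC stood to A was tested as an interaction. Of all loci tested, 17.6% had a higher EC minus A difference in SG, 25.0% a lower one and 42.5% either. The members lay near these shares, with 16 of the 74 loci higher (21.6%) and 20 lower (27.0%). With a pseudocount of 0.1 FPKM, 9 were higher and 12 lower, and with replicate 3 of all EC and A groups left out, 9 were higher and 14 lower. The strongest case of a higher difference in SG was VIT_18s0001g12580, whose EC minus A difference was 1.05 ± 0.196 in SG and -1.23 ± 0.196 in CS. It was followed by VIT_13s0019g04750, with 10.8, 14.9 and 13.7 FPKM in SG EC against 4.89, 13.5 and 8.71 in SG A, and 6.75, 9.51 and 7.90 in CS EC against 13.8, 17.4 and 15.0 in CS A. EC and A overlapped in SG and not in CS at that locus, and its EC minus A difference was 0.58 ± 0.211 in SG and -0.86 ± 0.211 in CS (SE, limma adjusted p = 0.018 and 0.00099). VIT_08s0056g00330 had an EC minus A difference of 0.43 ± 0.106 in SG and -0.71 ± 0.106 in CS (SE).

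The reverse held at VIT_05s0029g01140, where EC minus A was -1.40 ± 0.208 in SG and 0.94 ± 0.208 in CS (SE, limma adjusted p = 4.7e-06 and 0.00039). The same locus was thus called lower in EC than in A in one cultivar and higher in the other. VIT_18s0001g00720 had 11.6, 7.48 and 9.24 FPKM in SG EC against 44.2, 44.2 and 41.5 in SG A, and 31.3, 16.2 and 25.5 in CS EC against 26.8, 27.2 and 25.8 in CS A. EC and A were separated in SG and overlapped in CS, where the difference was not called (limma adjusted p = 0.37). Opposite calls were those of VIT_05s0029g01140, VIT_18s0001g12580, VIT_13s0019g04750, VIT_08s0056g00330, VIT_04s0023g03550, VIT_07s0031g02910 and VIT_04s0008g02370.

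Replicates of one tissue did not agree equally well at these loci. The median coefficient of variation over the 74 loci was 9.09% in SG EC, 10.9% in CS EC, 10.1% in SG A and 7.54% in CS A. Over all loci of 5 FPKM or more it was 6.64% in SG EC, 7.74% in CS EC, 10.6% in SG A and 6.34% in CS A. The member sums were 2953, 3548 and 3387 FPKM in SG EC and 2570, 3492 and 2847 in CS EC, so replicate 2 was the highest of its group in both.

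The loci that differed most between CS EC replicates are listed here after their values were seen. Leaving out VIT_00s2290g00010, 9 of the other 73 loci were at least 2-fold higher in CS EC replicate 2 than in replicate 1 and 0 were at least 2-fold lower, on the log2(FPKM + 1) scale. Of all loci with 5 FPKM or more in CS EC, 2.61% were that much higher and 1.24% that much lower. The 9 were VIT_15s0048g00550, VIT_07s0130g00030, VIT_12s0059g01410, VIT_00s0333g00050, VIT_15s0048g02510, VIT_00s0802g00020, VIT_15s0046g01040, VIT_12s0028g03300 and VIT_15s0048g02530. In SG EC, 2 of these 9, VIT_00s0333g00050 and VIT_12s0059g01410, were also at least 2-fold higher in replicate 2 than in replicate 1, where 0.543% of all loci were, and 0 of the 73 were that much lower, where 3.21% were.

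Across the 73 loci, the log2 ratio of replicate 2 to replicate 1 in SG EC and that in CS EC had a Pearson r of 0.73 and a Spearman rho of 0.69. Loci that differed most between these EC libraries in one cultivar thus tended to do so in the other, though replicate numbers are not taken to pair samples across groups and the sign of each ratio is arbitrary. The same ratios in SG A and CS A had an r of -0.08. In SG A, 6 loci were at least 2-fold higher and 7 at least 2-fold lower in replicate 2 (4.46% and 3.7% of all loci), and in CS A 1 was higher and 1 lower (0.551% and 0.951%). The ratio within CS EC also had an r of 0.48 and a rho of 0.46 with the EC minus A difference of SG, which shares no library with it. These are descriptions over loci that share libraries, and no p-value is given. The correlations of these ratios were not worked out over all loci, so they are not read as particular to the members.

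**Figure D5:**
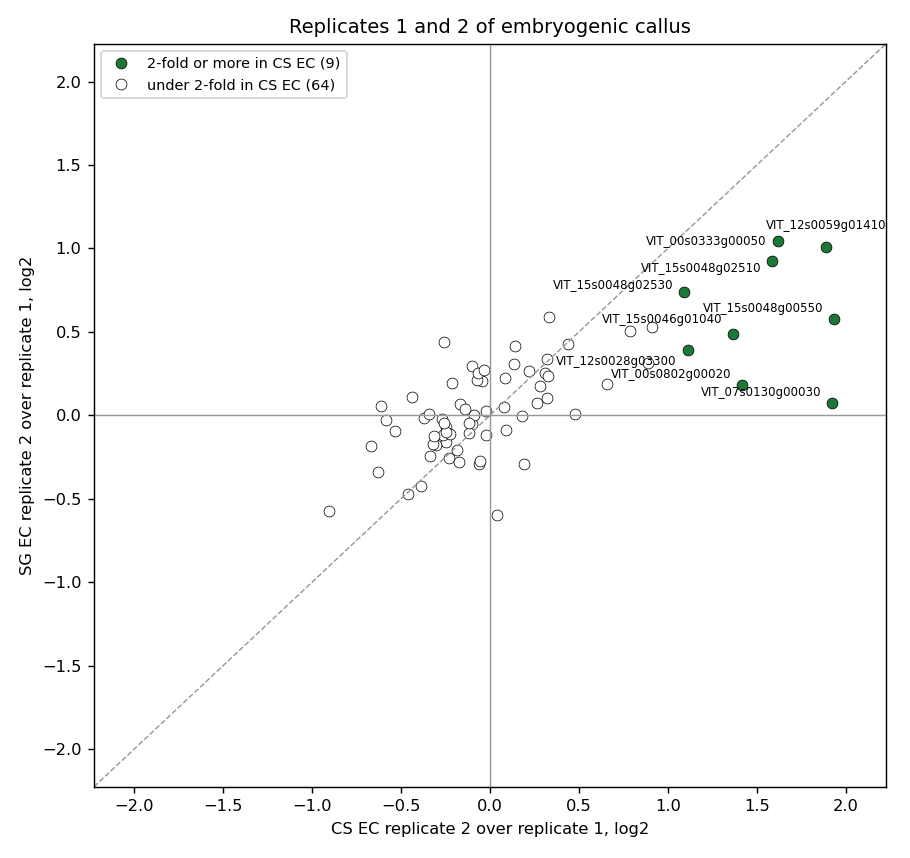
Log2 ratio of replicate 2 to replicate 1, after adding 1 FPKM, in SG EC (vertical axis) against that in CS EC (horizontal axis), for 73 loci; filled points are the 9 loci at least 2-fold higher in CS EC replicate 2, and the dashed line marks equal ratios. All 9 lie to the right and above 0 on the vertical axis, while most other loci lie near the origin.

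The identifiers name the chromosome each locus was placed on, with 0 for unplaced sequence. The 74 loci were spread widely. Chromosome 18 held 9 of them, 12.2% of the members and 7.68% of all loci, unplaced sequence held 8 (10.8% of the members and 8.77% of all loci) and chromosome 12 held 6, while chromosome 2 held none. Of those on chromosome 18, 8 carried the prefix VIT_18s0001, which 1461 loci share. This spread was not tested.

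A few members were neighbours by locus number. In all, 7 of the 74 loci lay next to another member, in 3 runs. Of 142 neighbours listed for the members, 8 (5.63%) were members, where 74 of all 29971 loci are. This was not tested. The longest run was VIT_00s0199g00080, VIT_00s0199g00090 and VIT_00s0199g00100 on unplaced sequence. VIT_00s0199g00080 averaged 21.9 FPKM in SG EC, 16.4 in CS EC, 14.5 in SG A and 17.2 in CS A. VIT_00s0199g00090 averaged 7.96, 5.37, 5.61 and 6.30 FPKM in the same groups, and VIT_00s0199g00100 averaged 9.60, 6.83, 7.49 and 8.49 FPKM. All 3 were highest in SG EC, although neighbouring loci may share reads or be parts of 1 transcript. The other runs were VIT_10s0116g01500 with VIT_10s0116g01510, and VIT_18s0001g01650 with VIT_18s0001g01660. VIT_10s0116g01500 averaged 19.7 FPKM in SG EC and 23.8 in CS EC, against 42.9 in SG A and 63.4 in CS A, and its neighbour 6.29 in SG EC and 5.86 in CS EC, against 23.2 in SG A and 27.7 in CS A. VIT_18s0001g01650 averaged 48.2 FPKM in SG EC and 40.1 in CS EC, against 66.2 in SG A and 83.5 in CS A, and its neighbour 5.25 in SG EC and 5.15 in CS EC, against 8.63 in SG A and 13.2 in CS A. All 4 loci were lower in EC than in A in their means, and lower in SG A than in CS A.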

How the data were processed

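RNA was measured in 24 non-directional libraries, 3 from each of 8 groups taken from the labels. Per the submitters' processing notes, the tools named are CASAVA 1.8.2, TopHat2 2.0.9 and Cufflinks 2.1.1. Genome build and annotation: not given in the sources used here. For 29971 loci, the authors deposited FPKM values, 1 column per library. Such values carry no read numbers, which leaves depth known only in relative terms and count tests out of place.

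Members were found from group means. The filter for testing was 1 FPKM or more in 3 or more libraries and kept 21568 loci. Values were transformed as log2(FPKM + 1) and fitted with limma 3.58.1 (R 4.3.3), with the 8 groups as a factor over all libraries and a trend of the spread with level. P-values were adjusted by Benjamini-Hochberg over all tested loci. Fold changes on this scale understate the change of low loci. The step was checked on simulated data. Contrasts of A or EC with 40D or NEC were not tested, as the rule used them.

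The members, lists and tests were chosen with earlier results of these data known. Named loci were the 6 highest, the 6 with the widest gap, and those with the largest called differences: 5 each way for EC against A, 3 each way for SG against CS in each tissue and for the interaction, without overlap of libraries except for the interaction. Loci with intermittent zeros were passed over. Loci at the limits of the rule and the longest run of neighbours were added. Others named in the text were chosen after their values were seen. A list of cell type markers written as gene names could not be used. Alternatives were other limits, pseudocounts, filters, scalings, moderation, a replicate block, the compared groups fitted alone, and libraries left out.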

Additional observations from a re-analysis of the deposited data

Results flagged for a closer look

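A difference between the cultivars in how EC stood to A was tested as an interaction in the limma fit. The EC minus A difference was called higher in SG at 16 of the 74 loci (21.6%) and lower at 20 (27.0%). Of all loci tested, 17.6% were called higher and 25.0% lower. The members thus lay near the general share, and the counts are not read as particular to them. With a pseudocount of 0.1 FPKM these counts were 9 and 12, and with replicate 3 of all EC and A groups left out 9 and 14. The differences named, SG minus CS on the log2(FPKM + 1) scale, were 2.28 for VIT_18s0001g12580, 1.44 for VIT_13s0019g04750, 1.14 for VIT_08s0056g00330, -2.40 for VIT_09s0002g03950, -2.34 for VIT_05s0029g01140 and -1.93 for VIT_18s0001g00720. The value for VIT_09s0002g03950 was -1.79 without CS A replicate 1. The source of these differences was not tested.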

How the results depend on the processing

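The number of members depended most on the limits. It was 198 at 3-fold, 17 at 10-fold, 128 at a level of 1 FPKM, 44 at 10 FPKM, 33 when every library had to pass and 49 under median-of-ratios scaling. It was 71 with group medians, 105 with equal column sums and 71 to 76 with single libraries left out.

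Requiring a log2 difference of at least 1 left 8 members higher and 15 lower for EC against A in SG, 9 and 18 in CS, 5 and 6 for the interaction, 6 and 0 for SG against CS in A, and 4 and 2 in EC. A pseudocount of 0.1 gave 9 higher and 12 lower for the interaction and 8 and 9 for SG against CS in EC. Leaving out replicate 3 of all EC and A groups, chosen after seeing the data, left 9 higher for the interaction and 7 for SG against CS in EC; the cause was not tested beyond the smaller number of libraries. With single libraries left out, higher and lower members ranged over 19 to 23 and 30 to 34 for EC against A in SG, 12 to 15 and 35 to 37 in CS, 13 to 19 and 17 to 21 for the interaction, 11 to 18 and 17 to 19 for SG against CS in A, and 10 to 16 and 11 to 17 in EC.

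The replicate number as a block gave 23 higher and 34 lower for EC against A in SG, 14 and 36 in CS, 15 and 19 for the interaction, 13 and 17 for SG against CS in A, and 16 and 14 in EC. Deviations from the group means of samples with the same number had r from -0.2645 (replicate 1 of SG A and CS A) to 0.1725 (replicate 2 of SG EC and CS EC). Between SG EC and CS EC, r was 0.1582, 0.1725 and 0.0149 for replicates 1, 2 and 3, so not every pair was over 0.1 and the numbers were not taken to pair the samples. Over the named loci, 646 values kept their direction and call, 8 lost the call and 0 reversed.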

Other observations

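VIT_00s2290g00010 met the rule through its means but not through its single libraries. It was listed at 0, 0 and 67.6 FPKM in SG EC, at 63.4, 39.2 and 21.3 in CS EC, at 0, 0 and 22.0 in SG A and at 0, 41.7 and 69.0 in CS A. In NEC it was listed at 0 in all 3 SG libraries and at 0, 22.1 and 0 in CS, and in 40D at 0 in all libraries of both cultivars. High values and zeros occurred within the same group in 4 of the 8 groups, and whether the zeros are failed estimates was not tested.

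Loci that met the rule in one cultivar were often kept out of the other by the fold limit rather than by a low level. Of 84 loci that met it in SG alone, 54 had 5 FPKM or more in both EC and A of CS but missed the fold limit there, 47 through 40D and 17 through NEC. EC of CS was under 5 FPKM at 18 of the 84 and A of CS at 17. Of 107 loci that met it in CS alone, 59 missed only the fold limit in SG, 52 through 40D and 37 through NEC. EC of SG was under 5 FPKM at 34 of the 107 and A of SG at 23.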
